A study of Rattus norvegicus with 14 samples.

Results

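Genes of bone formation and cartilage matrix were described in the foreskin of newborn Sprague Dawley rats: Runx2, Sp7, Ibsp, Spp1, Alpl, Acan, Hapln1, Matn1, Matn3 and Comp. They were taken by gene symbol, and each was measured by 1 probe set annotated with that symbol alone, so all 10 were present among the 14497 genes compared. The tested litters came from dams given 5 mg/kg/day flutamide, a drug that blocks the androgen receptor. The dams of the comparison litters received corn oil, the vehicle. Both were given by gavage from gestational day 16 until day 20, and foreskins were collected on postnatal day 5. Each group held 7 litters, and RNA of 2 foreskins was pooled per litter and hybridised to 1 Affymetrix Gene 1.0 ST array, so the litter was the replicate.

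Endochondral bone forms on a cartilage template: chondrocytes secrete a matrix of type II collagen, aggrecan and hyaluronan, and osteoblasts later replace it with mineralised type I collagen. Runx2 switches on the osteoblast programme and Sp7 acts below it, and bone matrix genes such as Ibsp and Spp1 are among their known targets. The rat penis holds a bone of its own, the baculum, which lies in the glans beneath the prepuce. Foreskin itself is skin, and several of these genes are also used outside the skeleton, among them Spp1 in macrophages and Alpl in blood vessels.

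None of the 10 genes passed the test between the flutamide and corn oil litters. Differences were tested in limma, with p-values adjusted by Benjamini and Hochberg's method over all genes compared and a threshold of 0.05, and 0.0069% of all genes passed it. The adjusted p of the 10 genes ran from 0.512 to 0.982. All 10 differences were above 0, where 52.3% of all genes were, and their median was 0.06 on the log2 scale against 0.005 over all genes. At an unadjusted p under 0.05 there were 2 of the 10 genes, Runx2 and Hapln1, both higher in flutamide litters, where 5.7% of all genes were higher and 3.46% lower by that rule. The groups overlapped for all 10 genes, and did not overlap for 0.124% of all genes. The 95% interval of the difference lay within 1.5-fold in either direction for all 10 genes. The arrays measured whole tissue, in which fewer cells of a type and less RNA per cell cannot be told apart.

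Flutamide replicate 7 stood apart from the other litters. The SD of its log2 values over all genes was 1.48, the lowest of the 14 arrays, while the others ran from 1.52 to 1.60, the highest being corn oil replicate 1. Flutamide replicate 7 also held the highest of all 14 values for 4 of the 10 genes, Alpl, Hapln1, Matn1 and Comp. Without it, 9 of the 10 differences were above 0, against 52.8% of all genes, their median was 0.04, and 1 gene, Runx2, stayed at an unadjusted p under 0.05. Over all genes 4.51% were then higher at that level. The limma adjusted p of the 10 genes ran from 0.647 to 0.986 without this litter, and 0.0069% of all genes passed. Markers of skin were checked in the same samples: the keratin gene Krt10 averaged 12.34 ± 0.04 in flutamide and 12.34 ± 0.09 in corn oil litters (SD, n = 7 each), and the dermal proteoglycan gene Dcn 11.08 ± 0.04 in flutamide and 11.13 ± 0.08 in corn oil litters (SD, n = 7 each). Krt10 and Dcn are single genes of longer lists. Of the 6 keratinocyte markers measured, 2 were above 0 in difference. Of the 10 fibroblast markers, 5 were above 0 and 2 were lower at an unadjusted p under 0.05, where 3.46% of all genes were. By brightness, 8 of the 10 cartilage and bone probe sets lay under the median of the genes compared, 5.89, where RMA shrinks differences. No detection calls were used, and brightness does not order RNA levels between genes.

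**Figure D1:**
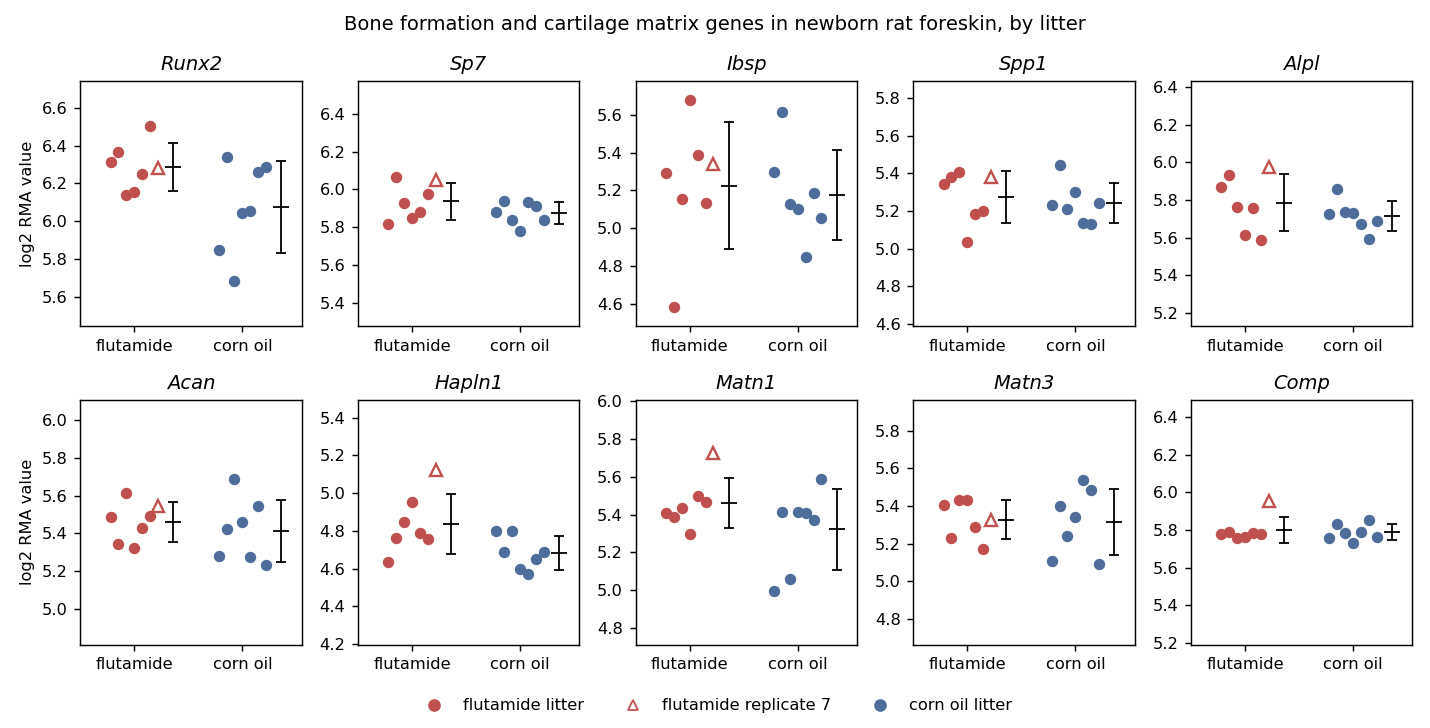
Log2 RMA value (vertical axes, each spanning the same height) of each gene in 7 flutamide and 7 corn oil litters, 1 point per litter, with the mean and SD of each group as a bar. Flutamide replicate 7 is the open triangle, which lies above every other litter for Alpl, Hapln1, Matn1 and Comp, and the groups overlap in all 10 panels.

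Among the transcription factors, Runx2 had the largest difference of the 10 genes. Runx2 is the DNA-binding factor without which osteoblasts do not form (probe set 10921899, NCBI gene 367218). Its log2 value ran from 6.14 over a median of 6.28 to 6.50 in flutamide litters, against 5.68 over a median of 6.06 to 6.34 in corn oil litters. Flutamide replicates 6 and 2 exceeded every corn oil litter, the other 5 flutamide litters lay in the upper part of the corn oil range, and the lowest values were those of corn oil replicates 3 and 1, at 5.68 and 5.85. The means were 6.29 ± 0.13 in flutamide and 6.07 ± 0.24 in corn oil litters (SD, n = 7 each). The difference of 0.21 (SE 0.09), or 1.16-fold with an interval from 1.01 to 1.33, had a limma p of 0.0345 and an adjusted p of 0.512. An exact permutation test of this gene over all splits of the litters, two-sided and unadjusted, gave p = 0.0600. Without flutamide replicate 7 the difference was also 0.21 (SE 0.10; limma adjusted p = 0.647). The unadjusted limma p was above 0.05 when any 1 of 7 litters was left out. It was 0.0797 without corn oil replicate 1, 0.0919 without corn oil replicate 3, 0.0529 without corn oil replicate 4 and 0.0501 without corn oil replicate 5. Without flutamide replicates 1, 2 or 6 it was 0.0509, 0.0599 and 0.0789. The difference itself was lowest, at 0.15, without corn oil replicate 3.

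Runx2 is transcribed from a distal and a proximal promoter, and the protein is known to bind its own distal promoter. The windows before both annotated starts are shown because this gene and Hapln1 had the smallest p-values. Both genes also held a match to 1 form of the core letters that Runt factors recognise. The letters searched were TGTGGT and, on the other strand, ACCACA, and capitals mark a match. Other forms of the core were not searched. The sequences are RefSeq's of build GRCr8, 250 bases before each start, read 5′ to 3′ on the gene's strand. Runx2 lies on the plus strand at chr9:23664808-23665057 for the first window and chr9:23742990-23743239 for the second, and the Hapln1 window on the plus strand at chr2:22366717-22366966.
Runx2, first window: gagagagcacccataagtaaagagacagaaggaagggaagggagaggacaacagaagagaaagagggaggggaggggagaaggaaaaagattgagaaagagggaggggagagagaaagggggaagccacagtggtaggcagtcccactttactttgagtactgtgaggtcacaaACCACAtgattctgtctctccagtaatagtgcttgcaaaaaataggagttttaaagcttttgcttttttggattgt
Runx2, second window: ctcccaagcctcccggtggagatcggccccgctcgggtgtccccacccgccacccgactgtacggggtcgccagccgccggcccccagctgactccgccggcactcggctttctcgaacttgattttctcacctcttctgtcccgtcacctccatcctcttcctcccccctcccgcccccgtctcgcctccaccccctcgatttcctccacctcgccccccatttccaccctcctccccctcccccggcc
Hapln1: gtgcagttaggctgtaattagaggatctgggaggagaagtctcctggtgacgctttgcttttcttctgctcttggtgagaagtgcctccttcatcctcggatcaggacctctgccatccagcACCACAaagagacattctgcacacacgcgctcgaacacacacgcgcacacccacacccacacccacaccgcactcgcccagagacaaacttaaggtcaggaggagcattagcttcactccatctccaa
The match in the first Runx2 window begins 76 bases before the start and that of Hapln1 128 bases before it. Windows were found for 8 of the 10 genes, 9 windows in all, and 2 of the 9 held a match, where 14.5% of the 33469 windows in the table did. A match is a run of letters and says nothing of binding, and the probe set of Runx2 does not tell transcripts of its starts apart.

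Sp7, or osterix, is the zinc finger factor that acts after Runx2 in osteoblasts (probe set 10907601, NCBI gene 300260). Its values ran from 5.81 over a median of 5.93 to 6.07 in flutamide litters, against 5.78 over a median of 5.88 to 5.94 in corn oil litters. Only flutamide replicates 2, 6 and 7 exceeded the highest corn oil litter. The difference was 0.06 with a 95% interval from -0.05 to 0.18 (limma adjusted p = 0.771), and 0.04 without flutamide replicate 7.

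The 3 genes of mineral handling showed differences smaller than the spread between litters. Alpl encodes tissue-nonspecific alkaline phosphatase, which removes the mineral inhibitor pyrophosphate (probe set 10880805, NCBI gene 25586). Its values ran from 5.59 over a median of 5.77 to 5.98 in flutamide litters, against 5.59 over a median of 5.73 to 5.86 in corn oil litters. The groups shared their lower end, and flutamide replicates 7, 2 and 1 formed the upper end. The difference was 0.07 (SE 0.07; limma adjusted p = 0.793), and 0.04 without flutamide replicate 7.

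Spp1 encodes osteopontin, an acidic phosphoprotein of bone matrix that binds integrins (probe set 10940654, NCBI gene 25353). Its values ran from 5.03 over a median of 5.34 to 5.41 in flutamide litters, against 5.13 over a median of 5.23 to 5.45 in corn oil litters. The highest litter was corn oil replicate 2 and the lowest flutamide replicate 4. The difference was 0.03 (SE 0.07; limma adjusted p = 0.923), and 0.02 (SE 0.07) without flutamide replicate 7. Macrophages also make osteopontin, and the mean of 12 macrophage markers ran from 5.73 to 5.98 in flutamide and from 5.81 to 6.09 in corn oil litters, with 3 of the 12 markers above 0 in difference and 1 of 12 lower at an unadjusted p under 0.05. Their part in the Spp1 values was not tested.

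Ibsp, bone sialoprotein, marks osteoblasts that are laying down mineral (probe set 10775365, NCBI gene 24477). It had the largest standard error of the 10 genes, 0.13, and its flutamide litters ran from 4.58 over a median of 5.29 to 5.68, against 4.85 over a median of 5.13 to 5.62 in corn oil litters. The difference of 0.05 had the widest interval, from -0.23 to 0.32 (limma adjusted p = 0.946), and was 0.03 without flutamide replicate 7. Its sign depended on single litters, at -0.03 without flutamide replicate 4 and -0.007 without corn oil replicate 5.

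Of the cartilage matrix genes, Hapln1 had the largest difference. Hapln1 encodes the link protein that fastens aggrecan to hyaluronan (probe set 10812399, NCBI gene 29331). Its values ran from 4.64 over a median of 4.79 to 5.12 in flutamide litters, against 4.57 over a median of 4.69 to 4.80 in corn oil litters. Flutamide replicates 7, 4 and 3, at 5.12, 4.95 and 4.85, lay above the whole corn oil group, and the other 4 flutamide litters fell within it. The means were 4.84 ± 0.16 in flutamide and 4.68 ± 0.09 in corn oil litters (SD, n = 7 each). The difference of 0.15 (SE 0.07), or 1.11-fold with an interval from 1.01 to 1.23, had a limma p of 0.0399 and an adjusted p of 0.524. Without flutamide replicate 7 it was 0.11 (SE 0.06), with a limma p of 0.102 and an adjusted p of 0.719. The unadjusted limma p was also above 0.05 without corn oil replicates 2, 4, 5, 6 or 7, at 0.0530, 0.0745, 0.0812, 0.0620 and 0.0541, and without flutamide replicates 3 or 4, at 0.0565 and 0.0803. The exact permutation test over all splits of the litters, two-sided and unadjusted, gave p = 0.0396 for Hapln1.

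Acan encodes aggrecan, the large proteoglycan that holds water in cartilage and the partner of the link protein (probe set 10708021, NCBI gene 58968). Its values ran from 5.32 over a median of 5.48 to 5.61 in flutamide litters, against 5.23 over a median of 5.42 to 5.69 in corn oil litters. The flutamide range lay inside that of corn oil. The difference was 0.05 (SE 0.07; limma adjusted p = 0.888), and 0.03 without flutamide replicate 7.

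Matn1 and Matn3 encode matrilins, which link collagen fibrils and proteoglycans. Matn1 (probe set 10872501, NCBI gene 297894) ran from 5.30 over a median of 5.44 to 5.72 in flutamide litters, against 5.00 over a median of 5.41 to 5.59 in corn oil litters. Its 2 lowest values were those of corn oil replicates 1 and 3, and the highest was flutamide replicate 7. The difference of 0.14 (SE 0.09; limma adjusted p = 0.662) became 0.09 (SE 0.09) without flutamide replicate 7 and 0.04 (SE 0.08; limma adjusted p = 0.954) without that litter and corn oil replicate 1. Matn3 (probe set 10883549, NCBI gene 313954) ran from 5.17 over a median of 5.33 to 5.43 in flutamide litters, against 5.09 over a median of 5.34 to 5.54 in corn oil litters. Its flutamide values lay inside the corn oil range and the difference was 0.01 (SE 0.07; limma adjusted p = 0.982), the same to 2 decimals without flutamide replicate 7. The sign was negative under 9 of the other settings run.

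Comp encodes a pentameric matrix protein of cartilage and tendon (probe set 10940446, NCBI gene 25304). Outside flutamide replicate 7, which had 5.95, its flutamide litters lay between 5.76 and 5.79, against 5.73 over a median of 5.78 to 5.85 in corn oil litters. The difference was 0.01 (SE 0.05; limma adjusted p = 0.965), and -0.01 (SE 0.05; limma adjusted p = 0.972) without flutamide replicate 7, so its sign rested on that litter. Comp also varied with array spread: across the 14 litters its value correlated with the SD of each array with r = -0.85 (permutation p = 0.000190, adjusted over the 10 genes 0.00190) and rho = -0.63 (permutation p = 0.0187, adjusted 0.110). Within groups r was -0.87 in flutamide and -0.91 in corn oil litters, and without the arrays of extreme SD, flutamide replicate 7 and corn oil replicate 1, it was -0.73. All 10 genes had a negative r with array SD, from -0.85 to -0.19, and only Comp passed. Over all genes 49.5% had a negative r, and among the genes below the median brightness, where 8 of these 10 lie, 71.2% did. An r as low as that of Comp or lower was found in 24 of the 14497 genes, or 0.166%. This relation was examined after the values were seen. With array SD as a covariate the group difference was 0.19 (SE 0.10; limma adjusted p = 0.630) for Runx2 and 0.12 (SE 0.07; limma adjusted p = 0.673) for Hapln1. It was smaller for the other genes as well, at 0.08 for Matn1, 0.05 for Alpl, 0.04 for Sp7, 0.02 for Spp1, 0.006 for Acan and 0.002 for Ibsp. The sign turned for Comp, at -0.02, and for Matn3, at -0.04.

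**Figure D2:**
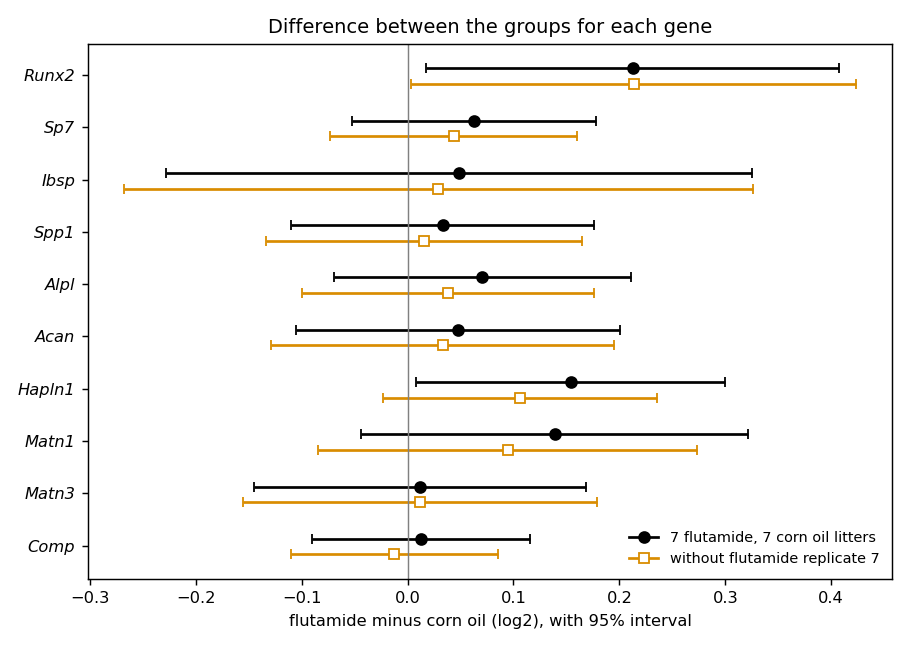
Flutamide minus corn oil difference of each gene on the log2 scale (horizontal axis) with its 95% interval from limma, over all 14 litters (filled circles) and without flutamide replicate 7 (open squares). Runx2 is at 0.21 in both, Hapln1 at 0.15 over all litters and 0.11 without that litter, and Comp at 0.01 and -0.01.

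Across litters, 1 pair of these genes varied together with an adjusted p under 0.05 for Pearson's r. Of the 45 pairs among the 10 genes, 34 had a positive Pearson r over the 14 litters, with a median of 0.22 and a range from -0.32 to 0.80. The pair that passed after adjustment over the 45 pairs was Spp1 and Alpl, with r = 0.80 (permutation p = 0.000630, adjusted 0.0283) and rho = 0.79 (permutation p = 0.00118, adjusted 0.0531). Within groups r was 0.78 over the flutamide and 0.91 over the corn oil litters. It was 0.79 without the litters farthest from the median of Spp1, flutamide replicate 4 and corn oil replicate 2, and 0.80 without flutamide replicate 7. Spp1 and Alpl were thus high in the same litters of each group. Ibsp was not part of a pair that passed, and its r differed in sign between the groups. With Spp1 it was -0.63 in flutamide and 0.78 in corn oil litters, and -0.12 over all 14. With Alpl it was -0.43 in flutamide and 0.67 in corn oil litters, and -0.10 over all 14.

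The next pair, Runx2 and Matn1, had r = 0.73 (permutation p = 0.00429, adjusted 0.0965) and rho = 0.44 (permutation p = 0.118, adjusted 0.991). It rested on 2 litters, since r was 0.22 without corn oil replicates 1 and 3, the lowest for both genes. Within groups it was 0.16 in flutamide and 0.84 in corn oil litters. Sp7 and Comp came next with r = 0.61 (permutation p = 0.0194, adjusted 0.291) and rho = 0.58 (permutation p = 0.0324, adjusted 0.728), within groups 0.55 in flutamide and 0.77 in corn oil litters, and 0.48 without flutamide replicates 2 and 7.

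**Figure D3:**
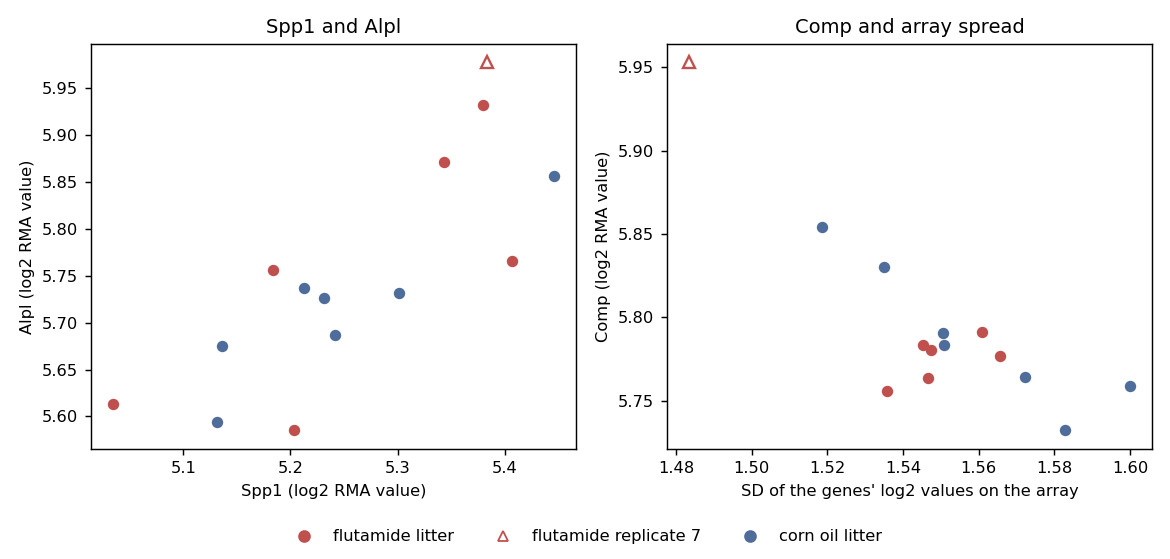
Left, log2 RMA value of Spp1 (horizontal axis) against Alpl (vertical axis), 1 point per litter, with r = 0.80 over 14 litters. Right, SD of all genes' log2 values on each array (horizontal axis) against the log2 RMA value of Comp (vertical axis), with flutamide replicate 7 at the upper left and r = -0.85.

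The windows before the starts of the pair that varied together are shown to set them side by side. Both lie on the minus strand, Spp1 at chr14:5619805-5620054 and Alpl at chr5:155289786-155290035 in RefSeq's GRCr8. Neither held the exact letters TGTGGT or ACCACA, so no capitals are marked. Other forms of the core were not searched, among them ACCGCA, which the Spp1 window holds.
Spp1: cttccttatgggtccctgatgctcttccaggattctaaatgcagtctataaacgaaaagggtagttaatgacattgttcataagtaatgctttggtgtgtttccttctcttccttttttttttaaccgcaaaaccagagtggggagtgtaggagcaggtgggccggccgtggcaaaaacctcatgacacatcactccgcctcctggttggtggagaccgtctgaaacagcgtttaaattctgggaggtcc
Alpl: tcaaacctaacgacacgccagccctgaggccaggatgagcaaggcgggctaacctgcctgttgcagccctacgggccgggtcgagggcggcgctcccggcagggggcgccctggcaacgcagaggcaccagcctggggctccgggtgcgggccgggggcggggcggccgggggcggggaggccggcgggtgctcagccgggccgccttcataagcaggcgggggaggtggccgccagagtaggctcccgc
No match says only that these letters are not in these windows.

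For the 2 genes with probe sets brighter than the median of all genes, Runx2 and Sp7, the genes with the most similar pattern over the 14 litters were listed by Pearson r, as a description of the closest of all genes compared. For Runx2 these were Bik, a cell death gene, with r = 0.90, and Txndc2, a thioredoxin gene, with r = 0.84. The olfactory receptor gene Or8h9 followed with r = 0.84. Within flutamide and corn oil litters r was 0.57 and 0.93 for Bik, 0.82 and 0.82 for Txndc2, and 0.83 and 0.85 for Or8h9. For Sp7 the closest was Hpcal4, a calcium sensor gene of neurons, with r = 0.85. The olfactory receptor gene Or8b54c followed with r = 0.84 and C6h2orf50 with r = 0.83. Within flutamide and corn oil litters r was 0.88 and 0.63 for Hpcal4, 0.88 and 0.89 for Or8b54c, and 0.86 and 0.77 for C6h2orf50. The olfactory receptor genes had mean values of 2.48 in flutamide and 2.37 in corn oil litters for Or8h9, and of 2.02 in flutamide and 1.90 in corn oil litters for Or8b54c.

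Other genes of the skeleton were counted in lists drawn from general knowledge, without the 10 genes above, and no member of any list passed over all genes. The shares over all genes, to be set beside each list, were 52.3% above 0, and 5.7% higher and 3.46% lower at an unadjusted p under 0.05. Counts of 1 or 2 genes in lists this short are small, and none was tested against these shares. In the list of cartilage matrix genes 24 of 28 were measured, 17 above 0, with a median difference of 0.05. At an unadjusted p under 0.05, 3 were higher and none lower. These were Otor and Mia, small secreted proteins of one family that are made by cartilage, and Prg4, the joint lubricant lubricin. Otor ran from 6.66 over a median of 6.87 to 7.10 in flutamide litters, against 6.32 over a median of 6.57 to 6.69 in corn oil litters. Flutamide replicates 1 and 2, at 6.66 and 6.67, fell inside the corn oil range and the other 5 lay above it. The difference was 0.32 (SE 0.08; limma adjusted p = 0.302), and 0.32 (SE 0.09) without flutamide replicate 7. Mia differed by 0.24 (SE 0.09, limma adjusted p = 0.376) and Prg4 by 0.18 (SE 0.08, limma adjusted p = 0.541). The probe set of Mia was dim, with means of 4.19 in flutamide and 3.95 in corn oil litters. Col2a1, the collagen that defines cartilage, averaged 6.25 ± 0.13 in flutamide and 6.18 ± 0.07 in corn oil litters (SD, n = 7 each), a difference of 0.07 (SE 0.06; limma adjusted p = 0.771). Col10a1, the collagen of hypertrophic chondrocytes, differed by 0.03 (SE 0.09; limma adjusted p = 0.956).

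Regulators of chondrocytes went both ways. Of 21 listed, 15 were measured and 10 were above 0, with a median of 0.05, and 2 were higher and 1 lower at an unadjusted p under 0.05. Zfp219, a zinc finger partner of Sox9 described in mouse, averaged 6.80 ± 0.06 in flutamide and 6.64 ± 0.06 in corn oil litters (SD, n = 7 each), a difference of 0.16 (SE 0.05; limma adjusted p = 0.352). Barx1, a homeobox gene, differed by 0.16 (SE 0.07; limma adjusted p = 0.542). Prrx1, a homeobox gene of limb and face mesenchyme, differed by -0.16 (SE 0.07; limma adjusted p = 0.509). Without flutamide replicate 7, Zfp219 alone of the list stayed at an unadjusted p under 0.05, and Barx1 and Prrx1 each had a limma p of 0.063. Sox9, the master regulator of cartilage, was not analysed here.

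In the osteoblast regulators 21 of 24 were measured and 10 were above 0, with a median of -0.005. These counts include Tafazzin, at 0.03, which encodes a mitochondrial enzyme and is not an osteoblast regulator. The 2 genes at an unadjusted p under 0.05 were both lower, opposite in sign to Runx2. Msx2, a homeobox gene of skull and skin appendages, averaged 6.34 ± 0.10 in flutamide and 6.52 ± 0.06 in corn oil litters (SD, n = 7 each), a difference of -0.18 (SE 0.05; limma adjusted p = 0.348). Vdr, the vitamin D receptor gene, averaged 5.53 ± 0.11 in flutamide and 5.72 ± 0.10 in corn oil litters (SD, n = 7 each), a difference of -0.19 (SE 0.06; limma adjusted p = 0.363). Bmp4, a bone morphogenetic protein, differed by 0.11 (SE 0.06; limma adjusted p = 0.605).

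The bone matrix and mineralisation list was measured in full, 24 genes with 13 above 0 and a median of 0.01. Enpp1, which makes the pyrophosphate that Alpl removes, was the 1 gene at an unadjusted p under 0.05. Its values ran from 7.72 over a median of 8.18 to 8.24 in flutamide litters, against 8.16 over a median of 8.23 to 8.29 in corn oil litters, a difference of -0.17 (SE 0.08; limma adjusted p = 0.524). Slc20a1, a phosphate transporter, differed by 0.12 (SE 0.07; limma adjusted p = 0.629) and Ostn, the secreted peptide osteocrin, by 0.15 (SE 0.09; limma adjusted p = 0.660). Bglap, osteocalcin, averaged 5.67 ± 0.16 in flutamide and 5.72 ± 0.17 in corn oil litters (SD, n = 7 each), and differed by -0.05 (SE 0.08; limma adjusted p = 0.892). Sparc, osteonectin, which fibroblasts also make, averaged 11.56 ± 0.09 in flutamide and 11.55 ± 0.08 in corn oil litters (SD, n = 7 each), and differed by 0.01 (SE 0.06; limma adjusted p = 0.983).

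Genes of osteoclasts, the cells that resorb bone, had 15 of 20 measured, 7 above 0 and a median of -0.004. The list also holds genes not particular to osteoclasts, among them Mmp13 and Tnfsf11. Mmp13, a collagenase of growth plate cartilage and bone, was the 1 gene of the list at an unadjusted p under 0.05. It differed by -0.17 (SE 0.08, limma adjusted p = 0.542), or -0.15 with a limma p of 0.0979 without flutamide replicate 7. Its probe set was dim, with means of 3.08 in flutamide and 3.25 in corn oil litters against a median of 5.89 over all genes. Itgb3, an integrin subunit, differed by -0.11 (SE 0.07; limma adjusted p = 0.642) and Clcn7, a lysosomal chloride transporter, by 0.12 (SE 0.08; limma adjusted p = 0.671). The list for building and sulphating the chains of aggrecan and other proteoglycans had 21 of 22 measured, 10 above 0 and a median of -0.003. These counts include the aggrecan-cleaving proteases Adamts4 and Adamts5, the hyaluronan synthases Has2 and Has3, and the transporters Slc26a2 and Slc35b2. Chpf, a chondroitin chain polymerising factor, differed by 0.22 (SE 0.09; limma adjusted p = 0.470), and by 0.17 (SE 0.08) with a limma p of 0.0617 without flutamide replicate 7. It was the 1 gene of this list at an unadjusted p under 0.05 over all litters. The sulphotransferase gene Chst7 differed by 0.19 (SE 0.12; limma adjusted p = 0.654) and the synthase gene Chsy1 by 0.08 (SE 0.06; limma adjusted p = 0.714).

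**Figure D4:**
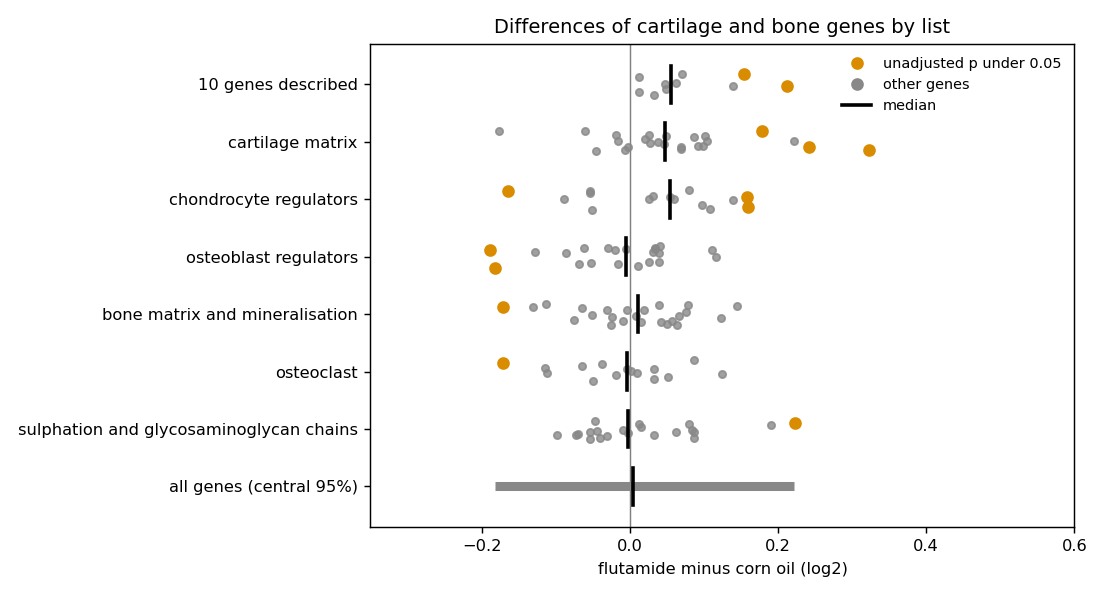
Flutamide minus corn oil difference on the log2 scale (horizontal axis) for each measured gene of the lists (1 point per gene, orange at an unadjusted limma p under 0.05), with the median of each list as a black bar. The bottom row shows the central 95% of all genes compared, from -0.18 to 0.22. Otor, at 0.32, lies farthest beyond it, and others lie outside on both sides, among them Mia at 0.24 and Vdr at -0.19.

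Markers of other cells of the foreskin were set beside these values. The mean of 10 fibroblast markers ran from 8.33 to 8.56 in flutamide and from 8.41 to 8.62 in corn oil litters, with 5 of 10 above 0 in difference and 2 of 10 lower at an unadjusted p under 0.05, where 3.46% of all genes were. The mean of 10 skeletal muscle markers ran from 5.68 to 6.14 in flutamide and from 5.86 to 6.30 in corn oil litters, with 1 of 10 above 0 and 2 of 10 lower at that level. Smooth muscle markers, 10 measured, ran from 6.64 to 6.87 in flutamide and from 6.77 to 6.99 in corn oil litters, with 1 of 10 above 0 and 4 of 10 lower at that level, and a median difference of -0.13 over the list. The mean of 9 endothelial markers ran from 6.80 to 6.99 in flutamide and from 6.86 to 7.11 in corn oil litters, with 2 of 9 above 0. The mean of 6 keratinocyte markers ran from 10.14 to 10.30 in flutamide and from 10.21 to 10.32 in corn oil litters, with 2 of 6 above 0. No endothelial or keratinocyte marker was lower at that level, no marker of these 5 lists was higher at it, and none passed after adjustment over all genes. Their part in the differences of the cartilage and bone genes was not tested.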

How the data were processed

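The authors deposited log2 values of 28826 probe sets in 14 samples, made with RMA per the submitters' processing notes. RMA includes normalisation between arrays, which removes a change shared by most genes. Its version is not stated in the labels. The values themselves, from their range, are on a log2 scale. Per the labels' protocols, 50 ng of total RNA was amplified and labelled with biotin. The number of arrays limits precision: the median standard error of a difference was 0.07.

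Gene names came from GEO's annotation of the platform, with symbols updated by gene number through RefSeq (GRCr8), which matched 14471 of 14497 genes. Those with 1 symbol (15209; 306 had several) were kept, the brightest per gene. Flutamide was compared with corn oil in limma 3.58.1 (R 4.3.3), two-sided; the fit was tested on simulated data. Correlations used 100000 permutations, two-sided.

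The genes and lists were chosen with earlier results of these data known. Named were all 10 genes, the 3 smallest p-values per list of skeletal genes, 5 fixed genes, and the 3 closest patterns per bright gene. Krt10 and Dcn were named besides, as markers of skin. Twist2, Csf1r and Des each stand in 2 lists. Replicate numbers are shared between groups but not said to mark a shared batch; the deviations of same-numbered litters correlated at -0.07 to 0.15, and 1 of 7 pairs exceeded 0.1, so the fit had no block. Protein sequences were not used here.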

Additional observations from a re-analysis of the deposited data

Results flagged for a closer look

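Comp in flutamide replicate 7 stood far from the other litters of its group, at a log2 value of 5.95 where the other 6 flutamide litters lay between 5.76 and 5.79. The gap was 0.819 of the range of the group, above Dixon's 95% critical value for 7 samples. It was the 1 such value in 20 groups examined, 10 genes in each of the flutamide and corn oil groups, and chance flags about 1 in 20. The same array had the lowest SD of its values, 1.48.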

How the results depend on the processing

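None of the settings run brought any of the 10 genes past the threshold. The count at an unadjusted p under 0.05 was 2. It lay between 0 and 2 when each litter was omitted. It was 1 with the replicate block, with samples centred on their medians, after quantile normalisation, with trend and robust eBayes and with array weights. The exact permutation test also gave 1 gene, Hapln1, at p = 0.0396. With only genes of a mean of 5 or more, Hapln1 was left out by the filter and Runx2 stayed, at a limma p of 0.0286. The count was 0 when flutamide replicate 7 and corn oil replicate 1 were both omitted, and 0 with array SD as a covariate. The median difference of the 10 genes lay between 0.036 and 0.084 when each litter was omitted and between 0.032 and 0.055 otherwise. Over all genes 1 gene passed, between 0 and 1 when each litter was omitted, 0 with the replicate block, 0 without both litters, 2 with trend and robust eBayes and 2 with array SD as a covariate. With the block, Runx2 stayed at 0.21 (limma adjusted p = 0.323). Signs turned for Matn3 (-0.0227 without both litters, -0.00264 after quantile normalisation, -0.0395 with array SD), Comp (-0.0173 without both litters, -0.0186 with array SD), Col10a1 (-0.00202 without both litters) and Sparc (-0.00271 with centring, -0.00385 after quantile normalisation). When each litter was omitted, Matn3 lay between -0.0251 and 0.0487, Ibsp between -0.0278 and 0.156, Comp between -0.0125 and 0.0240, Col10a1 between -0.0367 and 0.0844 and Sparc between -0.0143 and 0.0294. The cause was not tested. Without detection calls, signal over background is unknown, and dim genes may have differed by more than their RMA values show.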
